A study of Mus musculus with 12 samples.

Results

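Complement is a cascade of plasma proteins that marks microbes and dying cells for removal. In the classical pathway the recognition molecule C1q, built from A, B and C chains, binds its target and starts the cleavage of C4, while factor B of the alternative pathway drives the amplification of C3 cleavage. The C1 inhibitor and factor I hold the cascade in check. Most circulating complement is made by hepatocytes, C1q comes mainly from macrophages and dendritic cells, and kidney tubule cells are known to make several components locally.

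The genes described here encode the C1q chains (C1qa, C1qb and C1qc), C3, C4b, factor B (Cfb), factor I (Cfi) and the C1 inhibitor (Serping1). Members were all probes whose platform annotation carried one of these 8 symbols, which gave 10 of the 45281 probes on the array, for 7 of the 8 genes among 19057 named on it. No probe in the annotation used here carried the symbol C3, so C3 was not analysed here. All 10 probes were among the 23984 that passed the filter on dim probes. C4b had 3 probes, Serping1 had 2 and each of the other 5 genes had 1.

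Whole kidneys came from male C57BL/6J mice, an inbred strain, at postnatal day 28. The labels name 6 control samples and 6 ethanol samples, the latter from dams with free access to 10% (v/v) ethanol between fertilization and gestation day 8.5, The labels do not say how the control mothers were treated, nor give the dam or litter of a kidney, nor state that each sample is its own animal. The p-values therefore measure the spread between these samples, which may be partly technical.

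Each sample was hybridised to 1 Illumina array, and levels below are log2 intensities after background correction and quantile normalization. Between 50.4% and 56.9% of probes lay above background on an array, and arrays correlated at 0.952 to 0.992 over the tested probes. The first principal component held 32.6% of the variance, with control 4 at -62.5 and ethanol 2 and 3 at 45.7 and 37.5. All 7 proximal tubule markers, among them Kap and Slc34a1, and the thick limb marker Umod were above background on 12 of 12 arrays.

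Ethanol 6 stood apart from the other arrays in hepatocyte markers. Of 12 such markers 9 were tested, and their mean level was 11.39 in ethanol 6, against 7.84 to 8.29 in the other ethanol samples and 7.70 to 9.34 in controls. Their summed level ran from 13.7 to 14.4 in controls and from 13.9 to 15.3 in ethanol samples. Ahsg, the gene of the liver plasma protein fetuin-A, was at 12.59 in ethanol 6 and at 9.19 and 9.39 in controls 3 and 4, but at 6.64 or lower elsewhere. Albumin (Alb) was above background on 2 of 12 arrays and reached 7.08 in ethanol 6, while Fgb was above background on 0 of 12. The differences of C4b, Cfb and Cfi and the correlations among them are given with and without ethanol 6.

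The promoters of C1qb and C1qc, neighbouring genes of the C1q cluster that varied together across the kidneys, are shown. They are the 2 of the 7 genes analysed that matched the promoter table used here, and C1qa is named only. Each sequence is the RefSeq window of 250 bases before to 50 bases after the start of the gene, 5′ to 3′ on the minus strand of chromosome 4 in build GRCm38.p6, at chr4:136886151-136886450 for C1qb and chr4:136892865-136893164 for C1qc. Capitals mark the core GAGGAA, or its reverse complement, of the sites bound by PU.1, a transcription factor of myeloid cells.
C1qb: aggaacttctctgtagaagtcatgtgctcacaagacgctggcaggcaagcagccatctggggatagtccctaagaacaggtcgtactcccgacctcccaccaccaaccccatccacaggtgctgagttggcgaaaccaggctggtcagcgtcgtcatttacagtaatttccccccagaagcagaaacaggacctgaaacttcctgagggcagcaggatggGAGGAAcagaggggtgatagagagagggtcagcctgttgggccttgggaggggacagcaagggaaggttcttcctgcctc
C1qc: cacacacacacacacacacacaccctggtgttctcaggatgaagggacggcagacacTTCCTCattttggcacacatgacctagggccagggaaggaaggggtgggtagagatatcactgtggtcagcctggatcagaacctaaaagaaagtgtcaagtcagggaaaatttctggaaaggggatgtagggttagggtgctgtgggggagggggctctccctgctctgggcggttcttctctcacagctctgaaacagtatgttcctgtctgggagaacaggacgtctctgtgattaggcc

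Each window held 1 such match, on the plus strand of the shown sequence for C1qb (bases 221 to 226) and on its reverse complement for C1qc (bases 58 to 63). The core is common: searched on both strands, it occurred in 28.3% of the 32851 promoter windows in the table. Neither window held the gamma-activated site TTCNNNGAA (8.30% of windows) or the interferon-stimulated response element (3.44%). A match is a run of letters, and none of these windows was tested for binding.

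The 3 C1q genes had lower means in the ethanol kidneys than in controls, by about the same amount with the main processing, but none passed the adjusted threshold. C1qa, the A chain gene, was at 6.25, 6.13, 6.44, 6.24, 5.53 and 5.94 in controls 1 to 6 and at 5.75, 5.41, 5.63, 5.69, 6.28 and 5.83 in ethanol samples 1 to 6. Control 5 lay among the ethanol samples and ethanol 5 among the controls, so the groups overlapped. Deposited intensities of C1qa were low, at 28.9 to 72.2, beside 215 to 463 for C1qb and 186 to 366 for C1qc. Controls averaged 6.09 ± 0.32 and ethanol samples 5.76 ± 0.29 (SD, n = 6 each), a log2 difference of -0.33 ± 0.17 (SE; limma adjusted p = 0.442).

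C1qb, the B chain gene, was at 8.83, 8.50, 8.81, 8.81, 8.41 and 8.53 in controls and at 8.74, 8.00, 8.29, 8.27, 8.53 and 8.34 in ethanol samples. Ethanol 2 was the lowest kidney, and ethanol 1 lay close to the 3 highest controls. The difference was -0.29 ± 0.13 on the log2 scale, from 8.65 ± 0.19 to 8.36 ± 0.25 (limma adjusted p = 0.410).

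C1qc, the C chain gene, was at 8.50, 8.31, 8.40, 8.65, 8.25 and 8.44 in controls and at 8.31, 7.87, 7.73, 8.20, 8.08 and 8.25 in ethanol samples. Here 3 ethanol samples (2, 3 and 5) lay clearly below every control, ethanol 4 lay just below, and ethanol 1 and 6 fell within the control range. The mean was 8.07 ± 0.23 against 8.42 ± 0.14 (SD, n = 6 each), a difference of -0.35 ± 0.12, or 1.28-fold higher in controls. In limma its unadjusted p was 0.0114 and its adjusted p was 0.379, and the exact permutation test gave p = 0.00866 (two-sided).

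**Figure D1:**
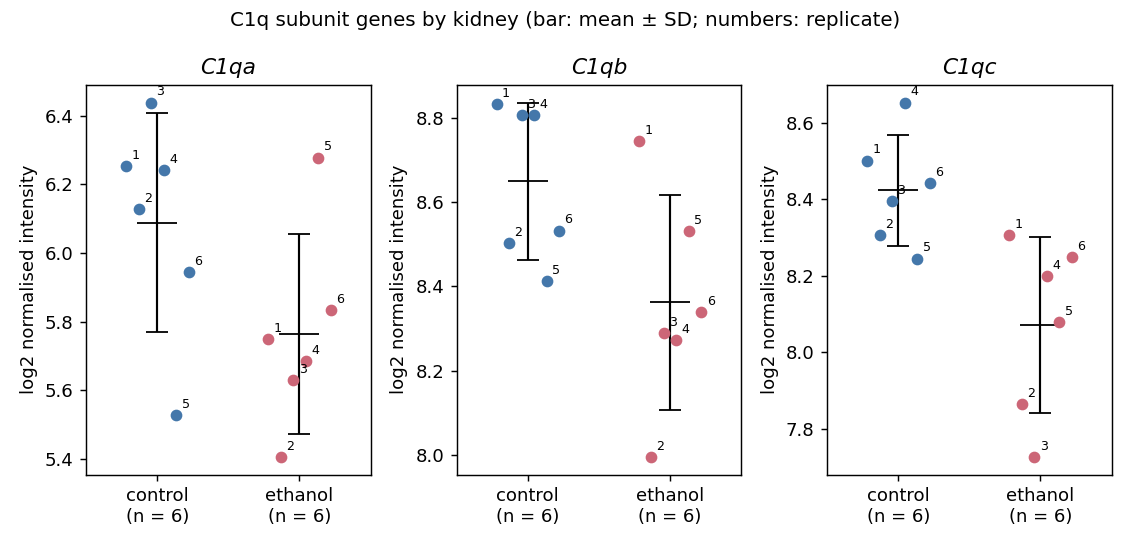
Log2 normalised intensity (vertical axes) of C1qa, C1qb and C1qc in each control (blue) and ethanol (red) kidney, with replicate numbers beside the points and bars for the mean ± SD (n = 6 each). All 3 ethanol means lie below the control means, with overlap between the groups in each gene.

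Over all members, 0 of 10 probes had an adjusted p under 0.05, against 0% of the 23984 tested probes. At an unadjusted p under 0.05 there were 2 of 10 probes, those of C1qb and C1qc, against 12.2% of all tested probes. Both were on the lower side, where 6.81% of all tested probes lay. With 1 array left out the count was 3 without control 5 or ethanol 5 and 1 without control 1, 3 or 4 or ethanol 2, 3, 4 or 6. In no member did the groups separate without overlap, which occurred in 0.484% of tested probes. Of the 7 leading probes (for each gene the one with the highest mean) 5 lay below 0, with a median difference of -0.13, beside 48.2% of all tested probes below 0 and a median of 0.01.

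**Figure D2:**
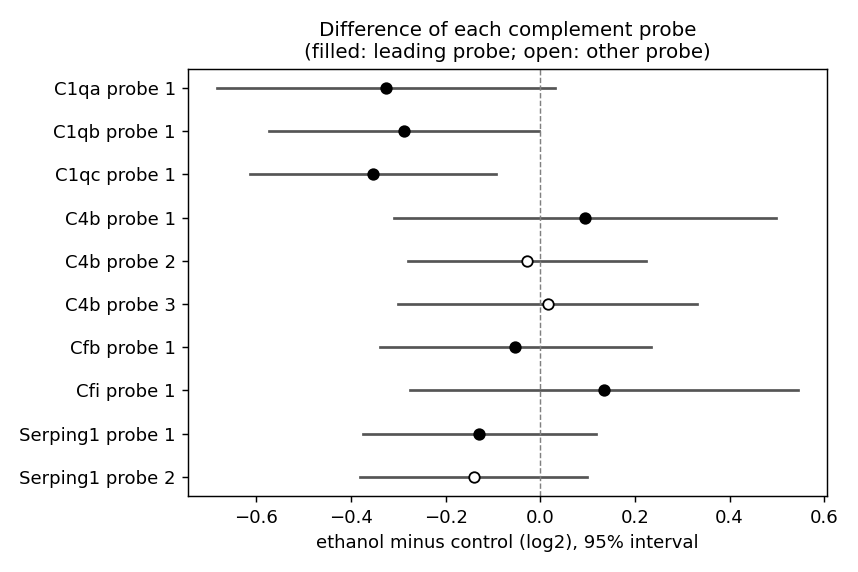
Difference of each of the 10 probes between the ethanol and control kidneys (horizontal axis, log2) with its 95% interval from limma. Filled points are leading probes and open points other probes of the same gene. The intervals of C1qb and C1qc, taken without adjustment, lie below 0, and the other 8 include 0.

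The difference was smaller in most macrophage markers. Of 12 listed markers 11 were tested, 8 below and 3 above 0, with a median difference of -0.08, and 0 had an adjusted or an unadjusted p under 0.05. Their mean level ran from 8.06 to 8.45 in controls and from 7.81 to 8.37 in ethanol samples, and their summed level from 12.4 to 12.6 and from 12.1 to 12.6. Among them the macrophage colony-stimulating factor receptor gene Csf1r differed by -0.04, the surface receptor gene Adgre1 by -0.08, the adapter gene Tyrobp by -0.26 and the fractalkine receptor gene Cx3cr1 by -0.32. The 3 above 0 were Ctss (0.02), Mrc1 (0.08) and the haemoglobin scavenger receptor gene Cd163, which at 0.50 had the widest difference of the list. In limma the unadjusted p of Cd163 was 0.0585, the smallest of the list. Cd163 was above background on 3 control and 6 ethanol arrays. It met the filter by its ethanol arrays alone, so its place above 0 is not independent of the filter. Over the 12 kidneys the mean of the macrophage markers had a Pearson's r of 0.0247 with C1qa (permutation p = 0.943), 0.0822 with C1qb (p = 0.802) and -0.209 with C1qc (p = 0.509), with Spearman's rho of 0, 0.112 and -0.0699. In a whole organ, fewer cells of a type and less RNA per cell cannot be told apart.

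Markers of several other lists had lower means in ethanol beside the C1q genes, the endothelial, T lymphocyte and interferon lists with the most genes at an unadjusted p under 0.05. The 6 endothelial markers had 4 below 0 and a median of -0.25, with a mean level of 9.03 to 9.52 in controls and 8.88 to 9.10 in ethanol samples. Their summed level overlapped, at 13.2 to 13.6 in controls and 13.2 to 13.4 in ethanol samples. Pecam1, Cldn5 and Eng differed by -0.47, -0.49 and -0.74, while Cdh5, Kdr and the brightest, Emcn, differed by -0.03, 0.01 and 0.04. The 4 tested genes of the T lymphocyte list, Cd3d, Cd3e, Cd52 and Coro1a, all lay below 0, with a median of -0.57. Their mean level was 6.85 to 7.91 in controls and 6.40 to 7.08 in ethanol samples. Cd3d was above background on 6 control and 2 ethanol arrays. It met the filter by its control arrays alone, so its place below 0 is not independent of the filter. Cd3g, Cd2 and Cd8a were not tested, with means of 5.16, 5.06 and 4.46 in controls and 4.68, 4.98 and 4.48 in ethanol samples. All 9 tested interferon response genes lay below 0 too, with a median of -0.18 (8.18 to 8.37 against 7.86 to 8.28). None of these genes had an adjusted p under 0.05 in limma. An unadjusted p under 0.05 was found for 3 endothelial, 4 T lymphocyte (Cd3d among them) and 4 interferon genes, all lower in ethanol. Of all tested probes, 6.81% had an unadjusted p under 0.05 on the lower side and 48.2% lay below 0. Genes of a list share the same arrays, and these counts were not tested against those shares. The 4 red cell markers and the 2 collecting duct markers also lay below 0 (medians -0.23 and -0.38), as did 5 of 7 matrix markers (median -0.10) and the 1 tested B and plasma cell marker (-0.37), with an unadjusted p under 0.05 for 1 collecting duct and 2 matrix genes.

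Of all marker lists, the endothelial mean had the highest correlation with each of C1qa and C1qc over the 12 kidneys. Pearson's r was 0.634 with C1qa and 0.680 with C1qb (permutation p = 0.0279 and 0.0143, adjusted p = 0.184 and 0.158 over 112 relations; Spearman's rho 0.643 and 0.706). With C1qc it was 0.805 (permutation p = 0.00139, adjusted p = 0.0778), and Spearman's rho was 0.909 (adjusted permutation p = 0.0101). Without controls 1 and 4, the farthest out in the endothelial mean, r was 0.529, 0.478 and 0.764 for C1qa, C1qb and C1qc, and with group means removed 0.449, 0.462 and 0.593. The collecting duct mean had 0.690 with C1qb (permutation p = 0.0143, adjusted p = 0.158; rho 0.587). The part of these markers in the C1q differences was not tested.

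C1qc also followed the first principal component of all tested probes, with a Pearson's r of -0.845 (permutation p = 0.00053, adjusted p = 0.0594 over 112 relations between members and lists) and a Spearman's rho of -0.783. The relation was -0.724 without control 4 and ethanol 2, the 2 arrays farthest out, and -0.802 with group means removed. For C1qb r was -0.585 and for C1qa -0.442 (permutation p = 0.0459 and 0.150; adjusted 0.214 and 0.374; Spearman's rho -0.601 and -0.434), and without the same 2 arrays -0.216 and -0.104. The lowest C1qc kidneys, ethanol 2 and 3, were those at the high end of the component. The relation was not confined to the C1q genes: for Cfb r was -0.740 (permutation p = 0.00601, adjusted p = 0.135; Spearman's rho -0.629). It was -0.548 without control 4 and ethanol 2 and -0.788 with group means removed.

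Serping1, the gene of the C1 inhibitor that blocks the proteases C1r and C1s, had close agreement between its probes. Probe 1 was at 11.97, 11.99, 11.59, 11.85, 11.90 and 11.46 in controls and at 11.59, 11.58, 11.74, 11.69, 11.84 and 11.55 in ethanol samples. Controls spanned the whole range, and every ethanol sample lay inside it. The difference was -0.13 (95% interval -0.37 to 0.12; limma adjusted p = 0.666), and probe 2 gave -0.14 (-0.38 to 0.10; adjusted p = 0.627). The probes correlated at a Pearson's r of 0.947 and a Spearman's rho of 0.965 (permutation p = 1e-05 each, the smallest that 100000 resamples can give), and at 0.907 without the 2 farthest samples.

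C4b encodes the C4 of the classical and lectin pathways, and its probes did not follow each other. The leading probe was at 5.80, 5.79, 6.22, 5.94, 5.80 and 6.47 in controls and at 6.33, 5.67, 6.01, 5.89, 5.87 and 6.82 in ethanol samples. Ethanol 6 was highest and ethanol 2 lowest, and the remaining ethanol samples lay within the control range. The difference was 0.09 (95% interval -0.31 to 0.50; limma adjusted p = 0.866), and without ethanol 6 it turned to -0.05 (adjusted p = 0.903).

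The leading C4b probe was above background on 12 of 12 arrays, probe 2 on 11 and probe 3 on 6. Their deposited intensities were low, at 37.2 to 105 for the leading probe, 13.2 to 34.2 for probe 2 and 5.20 to 34.5 for probe 3. Probe 2 differed by -0.03 (limma adjusted p = 0.943) and probe 3 by 0.02 (adjusted p = 0.977), and without ethanol 6 by -0.06 and 0.06 (adjusted p = 0.835 and 0.881). The leading probe had a Pearson's r of 0.283 with probe 2 (Spearman's rho 0.245, permutation p = 0.371) and -0.383 with probe 3 (rho -0.364, p = 0.220), and probes 2 and 3 had -0.316 (rho -0.217, p = 0.321). The adjusted p was 0.371 for each over the 4 probe pairs. C4b has a near-identical neighbour, C4a, and cross-hybridisation between them was not tested. The leading C4a probe was at 7.57 in ethanol 6 and at 5.36 to 6.33 on the other 11 arrays, so the leading probes of both genes were highest in the array with the highest hepatocyte markers. C4b probe 2 was at 5.63 in ethanol 6 and 5.62 in control 3. Probe 3 was at 4.83 in ethanol 6 and highest in ethanol 2, at 5.50.

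Cfb, the alternative pathway protease, was at 10.98, 11.11, 11.27, 11.69, 11.33 and 11.56 in controls and at 11.31, 11.11, 11.21, 11.12, 11.30 and 11.58 in ethanol samples. Control 4, control 6 and ethanol 6 were the 3 highest kidneys, and the ethanol samples lay inside the control range. The difference was -0.05 (95% interval -0.34 to 0.23; limma adjusted p = 0.901), and -0.11 without ethanol 6 (adjusted p = 0.705).

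Cfi, the protease that cuts C3b and C4b, was at 7.90, 7.93, 8.09, 8.39, 8.10 and 8.35 in controls and at 8.30, 8.14, 8.50, 7.45, 8.28 and 8.87 in ethanol samples. Both the lowest kidney, ethanol 4, and the highest, ethanol 6, were in the ethanol group. Ethanol samples had an SD of 0.47 and controls one of 0.21 (n = 6 each), a difference in spread that was not tested. Means differed by 0.13 (95% interval -0.28 to 0.54; limma adjusted p = 0.800), and by 0.01 without ethanol 6 (adjusted p = 0.982). The widths of these intervals show that differences of the size seen in the C1q genes could not be told from 0 in C4b and Cfi.

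**Figure D3:**
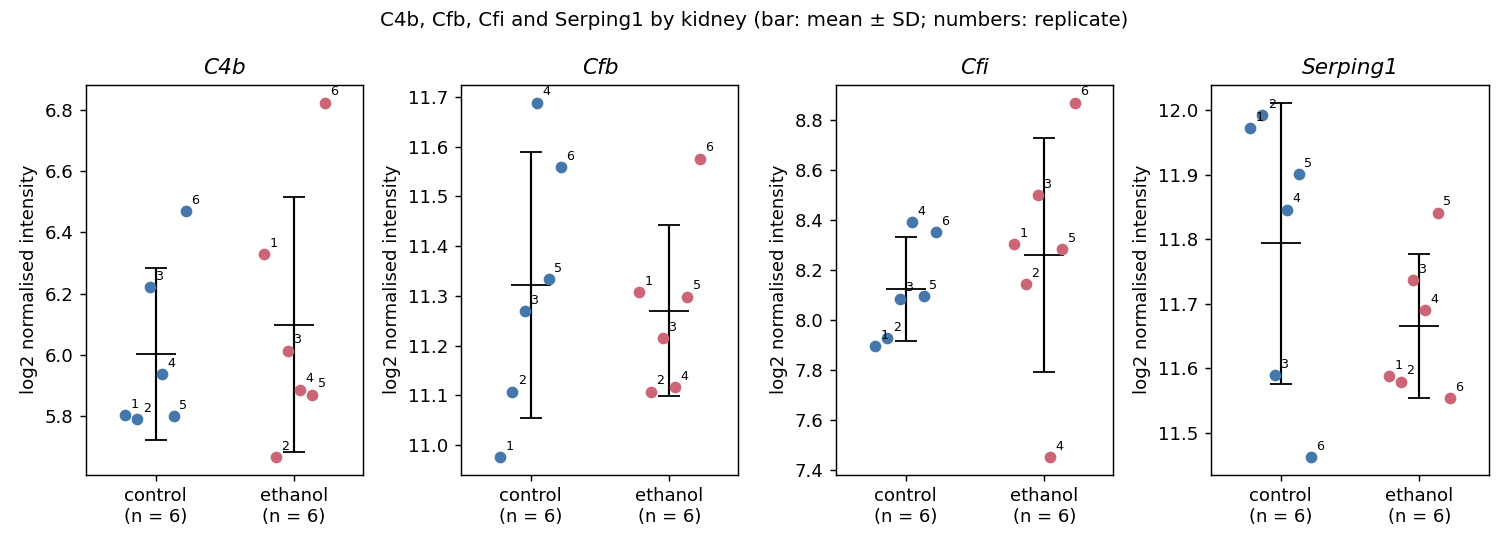
Log2 normalised intensity (vertical axes) of the leading probes of C4b, Cfb, Cfi and Serping1 in each control (blue) and ethanol (red) kidney, with replicate numbers and the mean ± SD (n = 6 each). Ethanol 6 is the highest kidney for C4b and Cfi, and ethanol 4 the lowest for Cfi.

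Across the 12 kidneys, the highest correlations among the 7 genes were within the C1q chains and among Cfb, Cfi and C4b. All 21 pairs of leading probes were compared, and 2 passed an adjusted p under 0.05, both of them with C1qb. Each of the 2 missed that threshold in 6 of 12 runs with 1 array left out. C1qa and C1qb had a Pearson's r of 0.789 (permutation p = 0.00259, adjusted p = 0.0273 over 21 pairs) and a Spearman's rho of 0.769 (p = 0.00492, adjusted p = 0.0517). C1qb and C1qc had an r of 0.784 (p = 0.0026, adjusted p = 0.0273) and a rho of 0.846 (p = 0.00112, adjusted p = 0.0235). C1qa and C1qc had 0.621 (rho 0.615, p = 0.0311, adjusted p = 0.0933).

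The C1q relations were weaker with the group means removed. There r was 0.707 for C1qa with C1qb, 0.651 for C1qb with C1qc and 0.433 for C1qa with C1qc, and none of the 21 pairs passed (smallest adjusted permutation p = 0.0953). Without the 2 kidneys farthest out in the first gene (control 3 and ethanol 2 for C1qa, control 1 and ethanol 2 for C1qb), the 3 values were 0.647, 0.680 and 0.506. Within the controls alone r was 0.848, 0.763 and 0.565 (exact permutation p = 0.0139, 0.0819 and 0.240, n = 6), and within ethanol samples 0.618, 0.602 and 0.369 (exact p = 0.168, 0.211 and 0.499, n = 6).

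How many other probes followed a C1q gene as closely differed between the chains. For C1qa, 0.117% of the other tested probes had a higher r than C1qb, and for C1qb 1.31% had a higher r than C1qa and 1.40% a higher r than C1qc, whereas for C1qc 5.88% had a higher r than C1qb and 13.2% a higher r than C1qa. The 0.95 quantile of r over all tested probes was 0.558 for C1qa, 0.681 for C1qb and 0.804 for C1qc. The r of 0.784 between C1qb and C1qc thus lay over that quantile from the side of C1qb and under it from the side of C1qc.

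Cfb and Cfi had a Pearson's r of 0.681 (Spearman's rho 0.692; permutation p = 0.0136, adjusted p = 0.0813), C4b and Cfi 0.647 (rho 0.601; p = 0.0242, adjusted p = 0.0933) and C4b and Cfb 0.617 (rho 0.636; p = 0.0311, adjusted p = 0.0933). None of them passed the adjusted threshold. Without control 1 and control 4, the farthest out in Cfb, Cfb and Cfi had 0.704, while without control 6 and ethanol 6, the farthest out in C4b, the values of C4b were 0.305 with Cfi and 0.316 with Cfb. The r of C4b with Cfi and Cfb was thus lower without those 2 kidneys, which were chosen as the extremes of C4b. Leaving out ethanol 6 alone gave 0.597 for Cfb with Cfi, 0.387 for C4b with Cfi and 0.510 for C4b with Cfb.

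C4b and Serping1 ran in opposite directions, at r = -0.672 (Pearson) and rho = -0.636 (Spearman; permutation p = 0.0155 and 0.0303, adjusted p = 0.0813 and 0.126). In controls alone r was -0.986 (exact permutation p = 0.00417, n = 6) and in ethanol samples -0.485 (exact p = 0.357, n = 6), a contrast that was not tested. Over all 12 kidneys without control 6 and ethanol 6 it was -0.517, and without ethanol 6 alone -0.675. The C1q genes had r between -0.107 and 0.384 with Cfb, Cfi and C4b.

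**Figure D4:**
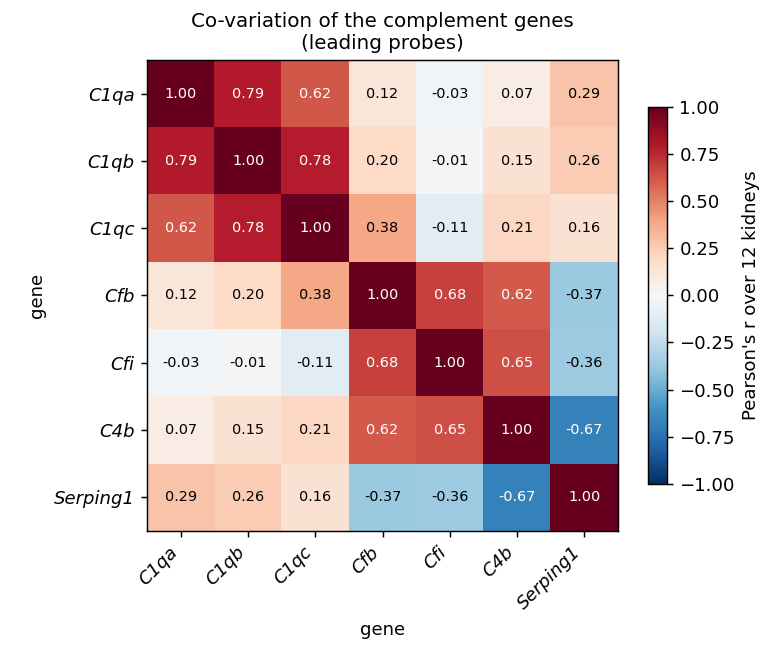
Pearson's r over the 12 kidneys between the leading probes of the 7 genes (colour scale and printed values, -1 to 1). Values run from 0.621 to 0.789 among the C1q chains and from 0.617 to 0.681 among Cfb, Cfi and the leading C4b probe. The other C4b probes did not follow that probe. Serping1 runs against C4b at -0.672.

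Hepatocyte markers moved with the leading probes of C4b, Cfi and Cfb. Their mean had a Pearson's r of 0.740 with C4b (Spearman's rho 0.727; permutation p = 0.0133, adjusted p = 0.158 over 112 relations), 0.685 with Cfi (rho 0.685; p = 0.0236, adjusted p = 0.184) and 0.655 with Cfb (rho 0.769; p = 0.0145, adjusted p = 0.158). Without control 4 and ethanol 6, the kidneys farthest out in the markers, r was 0.569, 0.290 and 0.386. The C1q genes had r from 0.0427 to 0.192 with the same mean. Cfb also followed the mean of the 7 proximal tubule markers (r = 0.792, rho 0.832; permutation p = 0.00218, adjusted p = 0.0814; 0.623 without control 4 and ethanol 6). Cfb ran against the mean of the thick limb markers (r = -0.733, rho -0.664; permutation p = 0.00411, adjusted p = 0.115; -0.724 without controls 3 and 4). It also ran against the mean of the macrophage markers (r = -0.678, rho -0.650; permutation p = 0.0134, adjusted p = 0.158; -0.590 without control 2 and ethanol 6). By Pearson's r 0 of the 112 relations passed after adjustment, and by Spearman's rho 1 did, that of C1qc with the endothelial markers. The part of these marker lists in the levels of C4b, Cfb and Cfi was not tested.

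**Figure D5:**
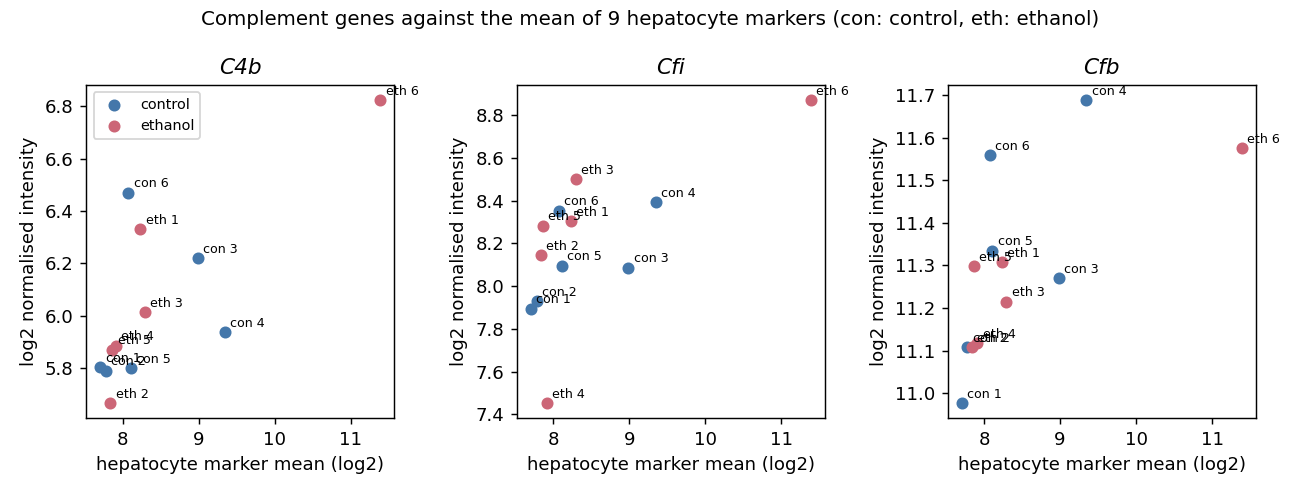
Log2 normalised intensity of C4b, Cfi and Cfb (vertical axes) against the mean log2 level of 9 hepatocyte markers (horizontal axes) in control (blue) and ethanol (red) kidneys. Ethanol 6, at 11.39, lies far to the right, with the highest C4b and Cfi and the second highest Cfb.

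The genes most like each member were named by Pearson's r over the 12 kidneys among all tested probes with 1 symbol. For C1qa these were the NF-kB inhibitor gene Nfkbia (0.882), Taf12 (0.862) and Snx27 (0.848), and for C1qb Clic1 (0.952), Lancl1 (0.946) and Mrpl9 (0.926). For C1qc they were Arl2bp (0.975), Zmat5 (0.960) and Trappc3 (0.953). No C1q gene was among the 3 nearest of another. Cfb was followed most closely by Mfsd4b5 (0.970), the folate enzyme gene Fpgs (0.963) and Serpinf2 (0.937), which encodes alpha-2-antiplasmin. C4b had Cyp4f14 (0.891), Rhov (0.853) and Sfmbt1 (0.851), Cfi had Spata2l (0.857), Anapc13 (0.846) and Dpp7 (0.841), and Serping1 had Tbc1d2b (0.873), Lypd3 (0.862) and Btla (0.854). Each was taken from the top of 23983 values and carries no test.

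In the rest of the complement pathway, 48 further genes were looked up, 44 had a probe and 24 were tested. Of these 14 lay below and 10 above 0, with a median of -0.02, and 0 passed an adjusted p under 0.05 in limma (smallest 0.379). Unadjusted p-values under 0.05 were found for 3 on the lower and 4 on the higher side, against 6.81% and 5.35% of all tested probes. With 1 array left out the count of higher genes fell to 1 without control 6 or ethanol 2 and to 2 without control 3, control 5, ethanol 3 or ethanol 5, and the lower count ran from 2 to 4.

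Among recognition genes, Colec11, a soluble lectin that starts the lectin pathway, was at 6.25 to 6.95 in controls and 6.00 to 6.24 in ethanol samples, so that the groups just failed to overlap, as in 0.484% of all tested probes. It differed by -0.46 ± 0.13 (SE; limma unadjusted p = 0.0034, adjusted p = 0.379). Masp1, a protease of the same pathway, differed by 0.37, and its second tested probe, which was dimmer, by -0.00077. Cfp, the gene of properdin, which stabilises the alternative pathway convertase, averaged 8.64 ± 0.44 in controls and 9.19 ± 0.19 in ethanol samples (SD, n = 6 each), a difference of 0.55 ± 0.18 (limma adjusted p = 0.379). Control 6 was the lowest kidney for Cfp, at 7.89, and ethanol 6 the highest, at 9.38.

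Of the terminal components, C8b differed by 0.28 (10.85 ± 0.20 against 10.57 ± 0.13) and C9 by 0.62. C9 exceeded background on 3 control and 4 ethanol arrays and was highest in ethanol 6, at 6.82; without that array it differed by 0.37. Cr1l, which encodes the membrane regulator Crry of rodents, was at 7.19 to 7.82 in controls and 6.54 to 7.39 in ethanol samples. Its difference was -0.55 ± 0.16 (SE; limma unadjusted p = 0.00326, adjusted p = 0.379), or -0.23 by its second probe. C1qbp, a mitochondrial protein first described as a C1q binding protein, differed by -0.43.

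The brightest tested genes of the pathway whose leading probe did not reach an unadjusted p of 0.05 were Cpn1, of the enzyme that inactivates anaphylatoxins (-0.06), the membrane attack complex inhibitor gene Cd59a (0.19), C2 (-0.12) and Cd93 (0.06). The other 2 tested probes of Cpn1 gave 0.07 and -0.49, the last at an unadjusted p of 0.0109 in limma, so its probes disagreed. The anaphylatoxin receptor genes C3ar1 and C5ar1 and the macrophage complement receptor gene Vsig4 were not tested, being above background on 1, 0 and 1 of 12 arrays. Without ethanol 6 the counts at an unadjusted p under 0.05 were 4 lower and 3 higher: the mannose-binding lectin gene Mbl1 joined the lower genes at -0.64, having differed by -0.26 with that array included, and C9 left the higher ones. Mbl1 exceeded background on 6 control and 3 ethanol arrays. It met the filter by its control arrays alone, so its place among the lower genes is not independent of the filter.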

How the data were processed

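RNA from whole kidneys was labelled and hybridised to 1-colour Illumina arrays. The authors deposited 1 linear intensity for each probe and array, with 8.16% to 33.3% of an array's values below 0, as background subtraction gives. Per the submitters' processing notes GenomeStudio was used. The sources used here give neither its version nor the background method or scaling. Per the labels RNA integrity numbers were 8 to 9. A second table, with 24 columns of values, was not used because its column names match no sample label.

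For each array the background mean was the mode of the intensities (kernel bandwidth 2, below the 0.6 quantile) and its SD the spread below the mode. A normal-exponential correction with an offset of 16, quantile normalization and log2 followed (limma 3.58.1, R 4.3.3). Probes above background (normal p under 0.05) on at least 6 of 12 arrays were tested, and the number of arrays limits the precision. Ethanol minus control was fitted in limma over all tested probes with Benjamini-Hochberg adjustment, and 95% intervals are unadjusted. Symbols came from the platform annotation, and a gene's leading probe had the highest mean over the arrays. Correlations carry two-sided permutation p-values from 100000 resamples (numpy 2.4.6), or exact ones over 720 orderings within a group.

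Named genes were all members, pathway genes at an unadjusted p under 0.05 or among the 6 brightest tested, and the 3 genes most like each member, leaving out predicted and clone names. The members and lists were chosen with earlier results of these data known. Marker lists also covered B and plasma cells, neutrophils, red cells, fat, adrenal, collecting duct, podocytes and matrix, none with a called gene. The limma step was tested on simulated data. Alternatives covered background, scaling, filter, array weights, variance prior, a replicate block and each array left out. No array was left out of the main comparison.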

Additional observations from a re-analysis of the deposited data

How the results depend on the processing

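No member probe passed an adjusted p under 0.05 in limma under any alternative run. Over all probes the count of calls stayed at 0 except with the deposited values as they stand, where 1 probe passed, and the number at an unadjusted p under 0.05 ran from 2215 to 4096 over settings and from 1834 (without ethanol 2; 1847 without ethanol 3) to 3802 (without control 2) with 1 array left out. With the replicate block 0 probes passed, 3555 had an unadjusted p under 0.05, and C1qb and C1qc kept theirs under 0.05 (0.0453 and 0.0110); it changed no call. Same-numbered samples deviated together at r of 0.001 to 0.465, above 0.1 in 1 of 6 pairs. Differently numbered samples were not compared, so these values cannot show whether the numbers pair the samples. The 2 member probes at an unadjusted p under 0.05 became 1 with no background correction, with median scaling, with deposited values, with array weights and without ethanol 6, control 3 and control 4 together (chosen after seeing the data), and 1 to 3 with 1 array left out. All C1q differences stayed below 0, from -0.44 to -0.20 over settings and arrays. Over settings C1qa ran from -0.44 with no background correction to -0.21 with array weights. The ranges of C1qb and C1qc were -0.31 to -0.20 and -0.38 to -0.32.

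The difference of C4b turned to -0.050 without ethanol 6 and to -0.013 without the 3 arrays named above, and reached 0.188 without control 6. That of C4b probe 3 turned to -0.066 with no background correction, -0.093 with deposited values and -0.060 with array weights, and with 1 array left out ran from -0.076 to 0.083. With 1 array left out C4b probe 2 ran from -0.071 to 0.053 and Cfb from -0.121 to 0.021, the last without control 4. The cause was not tested. The 2 pairs of genes past the adjusted threshold became 1 with Spearman's rho, 0 with group means removed and 0 without the 3 arrays. With 1 array left out 0 to 3 pairs passed: 0 without control 1, 3 or 6 or ethanol 4, and 1 without control 4 (C4b with Cfb) or ethanol 2 (C4b with Serping1). C1qa with C1qb and C1qb with C1qc each missed the adjusted threshold in 6 of these 12 runs. Over 8 other settings they missed it in 4 and 2. Other pairs passed under single settings: C4b with Serping1 without ethanol 2 (r = -0.849) and with median scaling (-0.738), Cfb with Cfi without ethanol 3 (0.748), C4b with Cfb without control 4 (0.828), C1qa with C1qc without ethanol 5 (0.745) and C4b with Cfi with deposited values (0.769), at adjusted permutation p of 0.0101 to 0.0456. Apart from runs with 1 array left out, r over settings fell as low as 0.162 for C4b with Cfb and 0.453 for C4b with Cfi. The number of arrays and, for C1qa and C4b, the signal over background limit these results.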
